A study of Rattus norvegicus with 24 samples.

Results

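Fetal transcripts that were bright in the testis before birth and dim at puberty were described here as 133 probe sets of the 31042 that an Affymetrix Rat230_2 array holds beside its controls. The members were chosen by intensity: a probe set was one when its mean linear intensity was at least 1000 in the 4 corn oil arrays of gestational day 20 (GD20) and at most 100 in the 4 arrays of postnatal day 35 (PND35) from pups given corn oil both before and after birth. Probe sets for a list of imprinted genes, Amh, and genes whose symbols start with Col, Lam or Itg were left out, which removed 7 of the 140 probe sets that met both limits, namely those of Col14a1, Dlk1, Grb10, H19, Itga6, Meg3 and Mest. Of the 133 members, 99 had 1 gene symbol and stood for 92 genes, 3 had several symbols and 31 had none. The genes were 87 protein-coding genes, 4 long noncoding RNA genes and 1 transcribed pseudogene.

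The study measured whole testes of male Fisher 344 rats, an inbred strain, without their capsule, in 24 arrays that fall into 6 groups of 4. Dams were gavaged daily from GD12 to GD20 with corn oil or with DBP at 50 mg/kg in the same oil; DBP is dibutyl phthalate, a plasticizer that lowers testosterone output of the fetal rat testis. At PND35 the male offspring received 1 further gavage of 500 mg/kg DBP or of corn oil, and the testes were taken 6 hours later. The 4 pup groups are named by the fetal and then the postnatal dose: DBP-DBP (pups 124, 128, 133 and 135), oil-DBP (pups 105, 111, 115 and 121), DBP-oil (pups 123, 127, 132 and 134) and oil-oil (pups 104, 110, 114 and 120). The fetal groups are GD20 DBP (dams 16, 18, 19 and 21) and GD20 oil (dams 2, 3, 4 and 5), and the array of dam 2 is labelled as pooled from several samples. For GD20 DBP testes a gap of 6 hours from the final gavage is given, while GD20 oil testes carry no such time. The share of that final gavage in the GD20 differences was not tested. A PND35 array from Trizol-extracted RNA, in place of RNA from a column kit, was present in oil-DBP (pup 115) and in oil-oil (pup 104), while all GD20 RNA was made with Trizol and a micro kit. Array medians lay between 100.8 and 114.1 at PND35 and between 164.4 and 174.5 at GD20, so a PND35 value under 100 is one near or below the middle of its array. The files carry no detection calls, so the data cannot say that a member was off at PND35.

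The fetal testis is built from cords of dividing Sertoli cells and resting germ cells, set in a matrix-rich stroma with steroid-making fetal Leydig cells. By puberty the tubules fill with spermatocytes and spermatids, and many growth and patterning genes of the fetal somatic cells are used far less. Phthalates given to prepubertal rats act on Sertoli cells within hours and cause immature germ cells to detach.

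The brightest members at GD20 included secreted and signalling proteins as well as enzymes of other organs. Inhba, the beta A subunit shared by activin A and inhibin A, had intensities of 24, 8.61, 46.1 and 44.0 in oil-oil pups, against 6737, 5663, 6209 and 6241 in GD20 oil testes. Gpc3, a cell-surface heparan sulfate proteoglycan that restrains fetal growth, averaged 12.1 ± 6.22 in oil-oil pups and 3663 ± 127 in GD20 oil testes (SD, n = 4 each, as for all means below). Lhx9, a LIM homeobox factor needed for gonad formation in mice, averaged 64.8 ± 7.71 in oil-oil pups and 3175 ± 101 in GD20 oil testes. The members were chosen by these intensities of the GD20 oil and oil-oil arrays, so their age difference is given as a description, without a test.

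Others of the bright members have roles in hormone, vitamin and growth factor signalling. Agtr2, the angiotensin II type 2 receptor, averaged 9.13 ± 8.61 in oil-oil pups and 2908 ± 333 in GD20 oil testes. Crabp2, which carries retinoic acid to its nuclear receptors, averaged 41.8 ± 13.4 in oil-oil pups and 3661 ± 159 in GD20 oil testes. Sostdc1, an extracellular inhibitor of BMP and Wnt signals, averaged 32.6 ± 15.7 in oil-oil pups and 3047 ± 173 in GD20 oil testes. Further members among the 12 brightest at GD20 were the protocadherin Pcdh18, the glypican Gpc1, the calcium-binding protein Calb2, the matrix proteoglycan Vcan and the chemokine Cxcl12, whose oil-oil means lay between 27.5 and 98.0.

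Of 2 digestive enzyme genes among the members, Cpa1 (carboxypeptidase A1) had the highest GD20 oil mean of all members, at 9568 ± 384, with 90.3 ± 28.4 in oil-oil pups. Ctrb1, chymotrypsinogen B1, averaged 27.8 ± 8.72 in oil-oil pups and 2863 ± 148 in GD20 oil testes. Each was bright in all 8 GD20 arrays, with Cpa1 between 8005 and 10322 and Ctrb1 between 2609 and 3124. A list of 18 pancreatic genes on the array, drawn up after these values were seen, held no other member. The other 16 had means between 1.13 and 277 in GD20 DBP and between 2.49 and 230 in GD20 oil testes. Of these, Prss1, pancreatic trypsinogen, averaged 14.6 in GD20 DBP and 15.2 in GD20 oil testes, and Cela2a, a pancreatic elastase, was the brightest, at 277 in GD20 DBP and 230 in GD20 oil testes.

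By the gene lists used for this study, members were found under several functions. On the whole array 133 of 31042 probe sets were members, so a short list can lack one without this being a result. The counts below are a description. The hedgehog coreceptor Boc, the hedgehog transducer Smo, the hedgehog-driven factor Gli1, the receptor Fgfr2 and the ligand Pdgfa made 5 of 46 developmental signalling genes on the array. Adamts1, Adamts5, Fbln2, Lox and Vcan made 5 of 67 non-collagen matrix genes, and Lhx9, Prrx2, Sox4 and Twist1 made 4 of 57 developmental transcription factors. Gpc3, the RNA-binding protein Igf2bp2 and the imprinted gene Nnat made 3 of 21 oncofetal genes. Crabp2, Pdlim7 and Tpm1 made 3 of 54 stromal and smooth muscle genes, C3 and Cxcl12 made 2 of 42 immune genes, and Nnat and Tubb2b made 2 of 36 neural genes. The keratins Krt8 and Krt18 stood both among 35 immature Sertoli genes and among 17 markers of mesonephric, epididymal and rete epithelium. Hsd17b3, the enzyme that makes testosterone from androstenedione, was the only member among 26 fetal Leydig and steroidogenic genes on the array. No gene of the lists for red cells (26 on the array), gonocytes and spermatogonia (22), DNA replication and mitosis (49), endothelium (33) or sarcomere (22) was a member by a probe set with 1 symbol, though the member 1398248_s_at is annotated to both Myh7 and Myh6, sarcomere myosins, and 66 of the 92 member genes were in no list.

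Values ran on without a gap across both limits. Just inside the upper limit were 1377874_at with a GD20 oil mean of 1003.6 and C3 with 1005, and just outside were Kdr with 994 and Gypc with 989. Just inside the lower limit were Fgfr2 with an oil-oil mean of 99.97, Lox with 99.9 and C1qtnf7 with 99.8, and just outside were Hmcn1 with 100.1, Tmem178a with 100.6 and Cemip with 100.6.

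**Figure D1:**
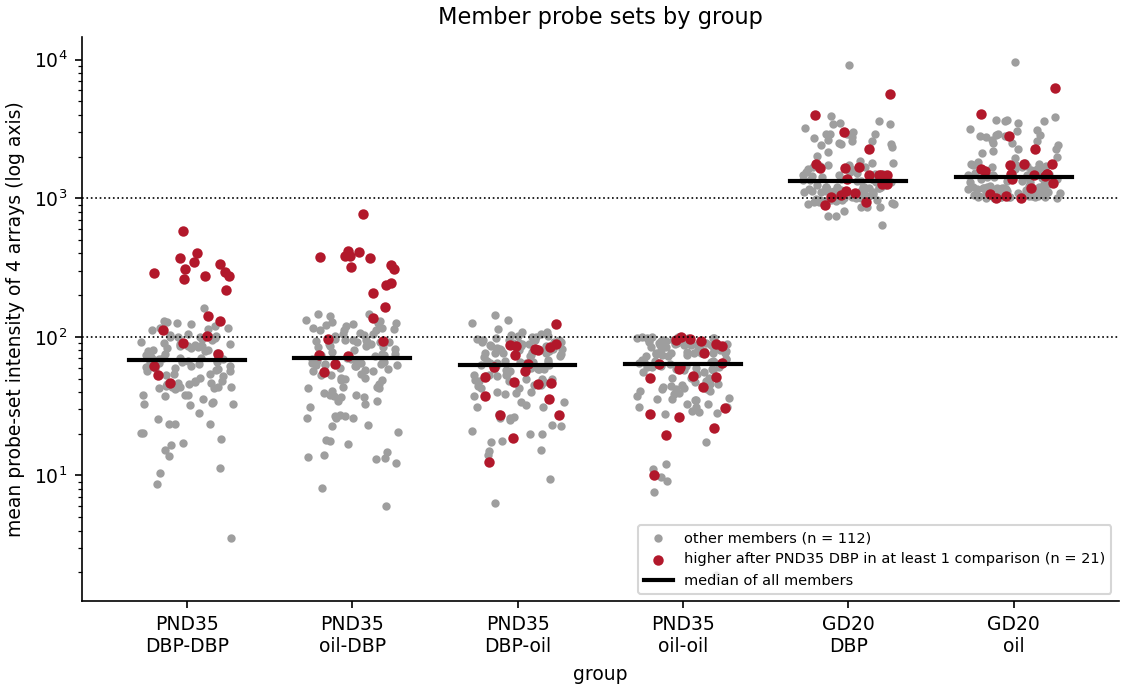
Mean intensity of each of the 133 members (points, log axis) in the 6 groups (4 arrays each), with a black line at each group's median. Dotted lines mark the limits of 100 and 1000 and red points the 21 members that were higher after DBP at PND35. The group medians run from 62.2 to 70.7 in the PND35 groups and are 1332 in GD20 DBP and 1417 in GD20 oil testes.

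The age difference was tested between groups whose arrays the rule did not use, the DBP-oil pups and the GD20 DBP testes, with the variance estimated over all 24 arrays. A fit of these 8 arrays alone gave the same count of members. All 133 members were lower in DBP-oil pups than in GD20 DBP testes by limma with Benjamini-Hochberg adjustment over all 31042 probe sets, where 41.4% of all probe sets were lower, 20.6% higher and 61.9% changed. The median log2 difference of the members in this test, on the log2(intensity + 16) scale, was -4.29 with a range of -7.12 to -2.56, against a median of -0.31 for all probe sets. Of the 133 members, 102 met both limits in these arrays too, 22 averaged under 1000 in GD20 DBP testes and 11 averaged over 100 in DBP-oil pups.

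The largest of these differences belonged to Inhba, at -7.12 ± 0.45 (SE, adjusted p = 7.3e-14), Gpc3, at -6.85 ± 0.41 (adjusted p = 2.08e-14), and Agtr2, at -6.72 ± 0.30 (adjusted p = 2.22e-17), all by limma. Krt8 differed by -5.75 ± 0.14 (limma adjusted p = 1.82e-22) and Lhx9 by -5.54 ± 0.13 (limma adjusted p = 1.24e-22). At the other end, Sirpa, a membrane receptor for CD47, differed by -2.56 ± 0.15 (limma adjusted p = 1.47e-14). In whole testis, fewer cells of a type and less RNA per cell cannot be told apart. The summed intensity of 5 spermatid markers was 59195 to 79605 in DBP-oil pups and 241 to 3019 in GD20 DBP testes, with the highest in dam 21, while that of 5 stromal markers was 3411 to 3956 in DBP-oil pups and 30641 to 36928 in GD20 DBP testes. The part of these shifts in the age difference was not tested, and extraction kit and age cannot be told apart.

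Other probe sets of the member genes mostly repeated the age difference, with exceptions. For 41 of the 92 genes the array held 66 further probe sets, of which 49 averaged over 100 in GD20 oil testes, and 47 of these 49 averaged lower in oil-oil pups. In 3 genes another probe set averaged at least 1000 in oil-oil pups, with 8466 for the nuclear matrix protein Matr3 against 7186 in GD20 oil testes, 1694 for the tropomyosin Tpm1 against 7915, and 1036 for Sox4 against 6963. A probe set of Emp1, an epithelial membrane protein, averaged 269 in oil-oil pups and 8327 in GD20 oil testes, and 1 of Gas5, a host gene of small nucleolar RNAs, averaged 317 in oil-oil pups and 3734 in GD20 oil testes. Levels of different probe sets are not on 1 scale. Of these 5 genes, the other probe sets of Tpm1, Sox4, Emp1 and Gas5 averaged lower in oil-oil pups, and that of Matr3 did not.

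Fetal DBP at 50 mg/kg moved few members at GD20. By limma 6 members fell in GD20 DBP testes (4.51% of 133) and 0 rose, where 0.232% of all probe sets were lower, 0.209% higher and 0.441% changed. The 6 were Emilin3, Crabp2, Sirpa, 1 of the 2 member probe sets of Trim2, and 1371910_at and 1379375_at, which have no gene symbol. Lower in all 4 DBP arrays than in any oil array were 24 members (18%), the 6 among them, against 4% of all probe sets, and 3 members were higher in all 4, against 3.2%. The GD20 oil arrays had also chosen the members through the limit of 1000, so a member near it was partly chosen for high oil values, and the comparison is not independent of the rule. The count was 3 with median centring, 0 without the intensity trend of the variance, 2 without the pooled array of oil dam 2, 2 without oil dam 3, 1 without oil dam 4 or oil dam 5 and 3 without DBP dam 21. That array stood apart in germ cell markers: the summed intensity of 5 spermatid markers was 3019 in DBP dam 21 and 241 to 526 in the other DBP dams, against 252 to 299 in GD20 oil testes, and the sum of 4 spermatocyte markers was 3829 in DBP dam 21 and 1994 to 2412 in the other DBP dams, against 1718 to 1950.4 in GD20 oil testes. The labelling control was low in DBP dams 19 and 21 and high in the other GD20 arrays; without these 2 arrays 6 members were called, and with that class as a covariate 4. The part of these shifts in the result was not tested.

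Emilin3, an elastin-microfibril-associated glycoprotein, had intensities of 1874, 1838, 1789.7 and 1729 in GD20 DBP testes, against 2378, 2375, 2496 and 2432 in GD20 oil testes. All 4 DBP dams lay below all 4 oil dams, and the log2 difference was -0.42 ± 0.057 (SE, limma adjusted p = 0.00885). Crabp2 had 2858, 2155, 2689 and 2148 in GD20 DBP testes, against 3840.3, 3465, 3619 and 3719 in GD20 oil testes. It fell by 0.58 on the log2 scale, with an SE of 0.094 and a limma adjusted p of 0.0246, and the DBP dams were more spread than the oil dams. Sirpa had 691, 857, 656 and 776 in GD20 DBP testes, against 1006, 1053, 993 and 993 in GD20 oil testes, a difference of -0.44 ± 0.085 (limma adjusted p = 0.0492). Its oil values sat at the limit of 1000 that chose it.

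Trim2, a ubiquitin ligase of neurons and other cells, was split between its probe sets. The probe set 1375278_at had 1244, 1302, 1435 and 1439 in GD20 DBP testes, against 1815, 1660.4, 1952 and 1702 in GD20 oil testes, a difference of -0.39 ± 0.074 (limma adjusted p = 0.0475). The other, 1373578_at, averaged 1471 ± 136 in GD20 DBP and 1463 ± 54.8 in GD20 oil testes, with a difference of 0.00 and an adjusted p of 0.991. The lowest adjusted p among the members was that of 1371910_at, with 595, 719, 668 and 581 in GD20 DBP testes, against 1109, 1092, 1181 and 1061 in GD20 oil testes, a difference of -0.78 ± 0.081 (limma adjusted p = 0.00203). The probe set 1379375_at had 1118, 1178, 1225 and 1012 in GD20 DBP testes, against 1506, 1434, 1523 and 1512 in GD20 oil testes, a difference of -0.40 ± 0.070 (limma adjusted p = 0.0342).

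**Figure D2:**
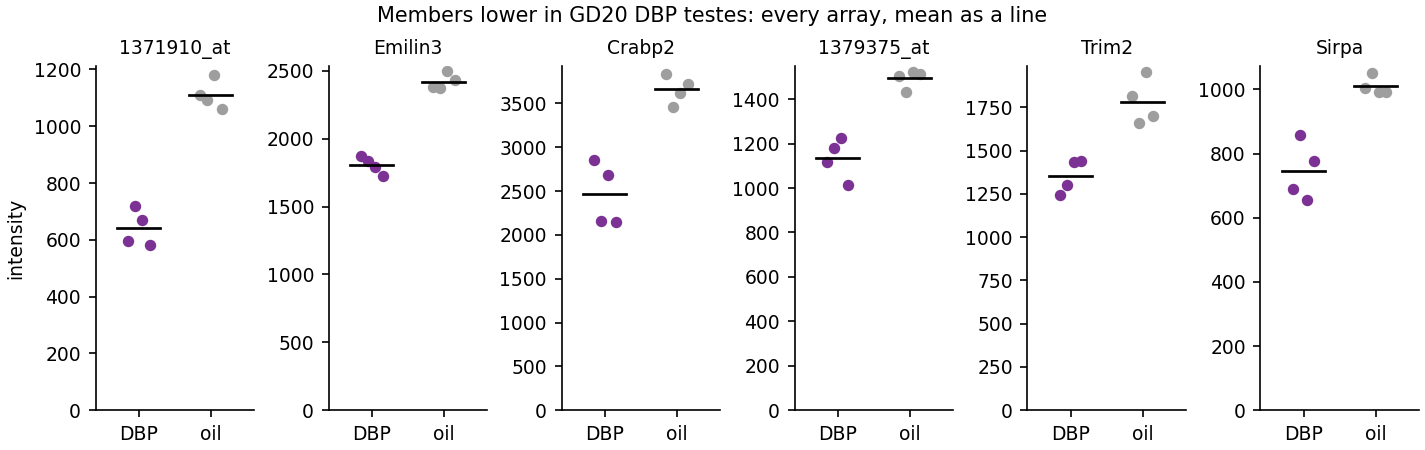
Intensity of the 6 members lower in GD20 DBP testes in every GD20 array (points, intensity axis), GD20 DBP left of GD20 oil, with a line at the mean of 4 arrays. No DBP array reaches the lowest oil array in any of the 6; the means are 1808 and 2420.4 for Emilin3 and 641 and 1111 for 1371910_at.

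Over all 133 members, the 6 called ones included, most differences at GD20 were negative. The median log2 difference of the 133 members was -0.07, with 87 negative and 46 positive, against -0.01 for all probe sets, and the range was -0.78 to 0.32. At an unadjusted p under 0.05, 41 members were lower and 5 higher, 46 in all, against 11.8% of all probe sets in either direction. Among all 5223 probe sets with a GD20 oil mean of at least 1000, 46.2% had a negative difference, 18.6% had an unadjusted p under 0.05 and 0.823% passed the adjusted test. Members below the mean of the oil arrays numbered 88, 70, 86 and 83 in DBP dams 16, 18, 19 and 21, against 61, 62, 66 and 70 in oil dams 2, 3, 4 and 5, so DBP dam 18 and oil dam 5 met.

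Several members with roles in steroid synthesis, epithelial structure and growth signalling did not pass the test. Hsd17b3 averaged 1735 ± 194 in GD20 DBP and 1427 ± 80.0 in GD20 oil testes, with a log2 difference of 0.27 ± 0.084 (limma adjusted p = 0.224). Krt8 averaged 2933 ± 251 in GD20 DBP and 2492 ± 59.1 in GD20 oil testes, with a difference of 0.23 ± 0.069 (limma adjusted p = 0.216). Pdgfa, a mesenchymal mitogen, averaged 946 ± 84.1 in GD20 DBP and 1185 ± 81.8 in GD20 oil testes, with a difference of -0.32 ± 0.079 (limma adjusted p = 0.128). Of the hedgehog genes, Gli1 averaged 972 ± 67.5 in GD20 DBP and 1123 ± 113 in GD20 oil testes and Boc averaged 1150.4 ± 183 in GD20 DBP and 1172 ± 86.6 in GD20 oil testes, and neither passed the test. On the array's wider lists, 0 of 46 developmental signalling genes and 0 of 67 matrix genes passed the test at GD20. With 0.441% of all probe sets called, lists of this size cannot show a lack of change by such a count. Some other lists held a gene that passed, such as 2 higher of 55 immediate early genes. The 1 lower of 54 stromal genes was the member Crabp2, already given above.

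At puberty a single dose of DBP raised a subset of the members within 6 hours. Of the 133 members, 14 (10.5%) were higher and 0 lower in DBP-DBP than in DBP-oil pups, where 3.64% of all probe sets were higher, 1.58% lower and 5.23% changed. The rule used no array of these groups, but the variance was estimated over all 16 PND35 arrays, oil-oil included, and a fit of the 8 arrays alone called 15 members. Among probe sets that averaged at most 100 in DBP-oil pups, 2.11% were higher. In oil-DBP against oil-oil pups, 20 members (15%) were higher and 2 (1.5%) lower, where 4.77% of all probe sets were higher, 4.15% lower and 8.92% changed. In that comparison the oil-oil arrays had chosen the members as dim, and among all probe sets at most 100 in oil-oil pups 2.76% were higher and 0.629% lower. All calls are by limma at an adjusted p under 0.05, and the log2(intensity + 16) scale understates the change of dim probe sets. With the RNA integrity number as a covariate, 14 members were called in oil-DBP against oil-oil pups, in place of 22. A control RNA added for labelling was at a high level in all 4 DBP-DBP arrays and in DBP-oil pups 132 and 134 and at a low level in the other PND35 arrays; with that class as a covariate 10 of the members were called in DBP-DBP against DBP-oil pups.

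In all, 21 members were higher in at least 1 of the comparisons, and they held 15 genes with 1 symbol. Of the 21, 13 were higher in both, which is 92.9% of those higher after fetal DBP and 65% of those higher after fetal oil. Of all probe sets, 959 were higher in both, which is 84.8% and 64.8% of those higher after fetal DBP and after fetal oil. All 20 members that passed after fetal oil had a positive difference after fetal DBP as well. Over all 133 members, 18 (13.5%) were higher in every DBP-DBP than in any DBP-oil array, against 6.06% of all probe sets, and 24 (18%) in every oil-DBP than in any oil-oil array, against 6.49%. Members lower in every dosed array numbered 4 in each comparison, against 5.93% of all probe sets after fetal DBP and 4.3% after fetal oil. The return was partial: the 21 members had a median of 16.5% of their GD20 oil mean in DBP-DBP pups and 15.7% in oil-DBP pups, against 3.55% in DBP-oil and 3.38% in oil-oil pups. The 21 were chosen for being higher in these dosed arrays, and the rule set limits on the oil-oil and GD20 oil means. These shares are therefore a description and no test of the return. The highest shares were 36.0% in DBP-DBP and 43.6% in oil-DBP pups, and no member averaged 1000 or more in any PND35 group.

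The lowest adjusted p in both comparisons was that of Adamts1, a secreted metalloproteinase that cleaves versican and is induced around ovulation in the ovary. Its intensity was 409.6, 529, 719 and 652 in DBP-DBP pups, against 34.1, 37.0, 73.3 and 45.1 in DBP-oil pups. It was 344, 429, 316 and 582 in oil-DBP pups, against 70.4, 45.9, 68.5 and 49.5 in oil-oil pups. Every dosed pup lay above every pup given oil, with log2 differences of 3.22 ± 0.22 after fetal DBP (limma adjusted p = 2.57e-09) and 2.45 ± 0.22 after fetal oil (limma adjusted p = 1.16e-07). The dosed means were 33.0% of the GD20 oil mean in DBP-DBP pups and 23.9% in oil-DBP pups.

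Inhba, the ligand subunit, rose in its member probe set with a wide spread between pups. It measured 113, 115, 500.3 and 381 in DBP-DBP pups, against 6.04, 40.8, 24.7 and 36.8 in DBP-oil pups. It measured 184, 587, 66.5 and 408 in oil-DBP pups, against 24, 8.61, 46.1 and 44.0 in oil-oil pups. The groups did not overlap, the differences were 2.56 ± 0.53 after fetal DBP (limma adjusted p = 0.00376) and 2.48 ± 0.53 after fetal oil (limma adjusted p = 0.00414), and the dosed means were 4.46% and 5.01% of the GD20 oil mean in DBP-DBP and oil-DBP pups. With the class of the labelling control as a covariate, the adjusted p of Inhba after fetal DBP was 0.0576. Another probe set of Inhba, with means of 151 in GD20 oil testes and 38.0 in oil-oil pups, passed in neither comparison. Follistatin (Fst), which binds activins and is no member, rose by 3.61 on the log2 scale in DBP-DBP against DBP-oil and by 3.98 in oil-DBP against oil-oil pups.

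The stretch of 250 bases before the RefSeq start of Inhba and of Adamts1 is printed because both genes rose in both comparisons and hold a TATA sequence there; capitals mark TATAAA, searched on both strands and found in 6 of the 69 member windows (8.70%), the receptor Adgrl2 among them, and in 13.09% of all 27457 rat promoter windows of that length. The bases are RefSeq's, build GRCr8, on the gene's strand: chr17:53804509-53804758 (minus strand) for Inhba and chr11:38427385-38427634 (minus strand) for Adamts1.
Inhba: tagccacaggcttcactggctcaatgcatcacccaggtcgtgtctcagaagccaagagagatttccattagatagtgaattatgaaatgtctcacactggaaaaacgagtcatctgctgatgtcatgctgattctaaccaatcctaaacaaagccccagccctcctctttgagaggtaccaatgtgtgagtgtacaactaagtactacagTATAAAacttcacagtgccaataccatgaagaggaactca
Adamts1: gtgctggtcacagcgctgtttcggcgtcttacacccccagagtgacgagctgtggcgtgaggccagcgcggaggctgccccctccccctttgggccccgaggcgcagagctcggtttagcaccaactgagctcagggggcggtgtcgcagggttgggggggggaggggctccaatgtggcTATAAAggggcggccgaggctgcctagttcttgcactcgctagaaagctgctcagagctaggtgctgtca

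Receptors for sphingosine 1-phosphate, a lipid that controls vascular and barrier function, rose as a pair. S1pr1 measured 251, 232, 441 and 427 in DBP-DBP pups, against 50.5, 64.2, 34.1 and 37.6 in DBP-oil pups, and 168, 255, 155 and 369 in oil-DBP pups, against 14.7, 51.0, 80.9 and 57.2 in oil-oil pups. S1pr2 measured 263, 291, 506 and 430.4 in DBP-DBP pups, against 92.2, 86.3, 98.2 and 71.8 in DBP-oil pups, and 347, 388, 304 and 487 in oil-DBP pups, against 66.6, 106, 92.3 and 115 in oil-oil pups. No dosed pup overlapped a pup given oil in either member probe set. S1pr1 differed by 2.45 ± 0.33 after fetal DBP (limma adjusted p = 3.18e-05) and 1.89 ± 0.33 after fetal oil (limma adjusted p = 0.000554). S1pr2 differed by 1.85 ± 0.21 after fetal DBP (limma adjusted p = 3.17e-06) and 1.78 ± 0.21 after fetal oil (limma adjusted p = 4.9e-06), and reached 36.0% and 36.9% of its GD20 oil mean in DBP-DBP and oil-DBP pups. Another probe set of S1pr2 rose by 1.70 after fetal oil (limma adjusted p = 0.000838) and did not pass after fetal DBP. Another of S1pr1, with means of 7.04 in GD20 oil testes and 2.56 in oil-oil pups, passed in neither comparison. The summed intensity of 4 endothelial markers on the array lay between 512 and 608 in DBP-DBP, 478 and 645 in oil-DBP, 465 and 586 in DBP-oil and 491 and 628 in oil-oil pups. The markers differed among themselves: Kdr averaged 145 in DBP-DBP and 155 in oil-DBP pups, against 56.9 in DBP-oil and 88.5 in oil-oil pups, and Tek averaged 143 in DBP-DBP and 139 in oil-DBP pups, against 212 in DBP-oil and 238 in oil-oil pups.

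Growth factor and matrix genes formed a further set. Pdgfa measured 329.8, 260.0, 253 and 248 in DBP-DBP pups, against 79.6, 53.2, 83.6 and 111 in DBP-oil pups, and 243, 425, 345 and 461 in oil-DBP pups, against 96.9, 144, 54.2 and 81.2 in oil-oil pups. Its differences were 1.57 ± 0.24 after fetal DBP (limma adjusted p = 0.000159) and 1.77 ± 0.24 after fetal oil (limma adjusted p = 3.28e-05), and the groups did not overlap. Lox, the lysyl oxidase that cross-links collagen and elastin, measured 206, 189.8, 476 and 366 in DBP-DBP pups, against 102, 91.9, 87.3 and 60.3 in DBP-oil pups. In oil-DBP pups Lox measured 239, 474, 219 and 355, against 88.7, 104, 98.3 and 109 in oil-oil pups. Lox differed by 1.59 ± 0.26 after fetal DBP (limma adjusted p = 0.000318) and 1.42 ± 0.26 after fetal oil (limma adjusted p = 0.000893). Cthrc1, a secreted matrix protein, averaged 53.1 ± 24.5 in DBP-DBP and 12.6 ± 8.71 in DBP-oil pups, and 55.7 ± 32.4 in oil-DBP and 10.1 ± 3.38 in oil-oil pups, with differences of 1.22 and 1.29 that passed the test (limma adjusted p = 0.0349 and 0.019), and arrays overlapped in 1 of the comparisons. With the labelling control as a covariate the adjusted p of Cthrc1 was 0.0877 in DBP-DBP against DBP-oil pups.

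Lrrfip1, a nucleic acid-binding cytoplasmic protein, had the largest difference after fetal oil. It measured 179.8, 197, 808 and 429.5 in DBP-DBP pups, against 86.0, 51.1, 68.0 and 51.2 in DBP-oil pups. It measured 177, 1420.1, 490.3 and 1011 in oil-DBP pups, against 47.5, 45.9, 62.9 and 53.0 in oil-oil pups. Pups 111 and 121 stood far above the other oil-DBP pups, and no dosed pup overlapped a pup given oil. The differences were 2.14 ± 0.46 after fetal DBP (limma adjusted p = 0.00518) and 3.12 ± 0.46 after fetal oil (limma adjusted p = 8.61e-05). The other probe sets of Lrrfip1, with GD20 oil means of 510 and 160, passed in neither comparison. Nid2-ps16, annotated as a transcribed pseudogene of the basement membrane gene nidogen 2, differed by 2.12 ± 0.29 after fetal DBP (limma adjusted p = 4.62e-05) and 2.37 ± 0.29 after fetal oil (limma adjusted p = 9.89e-06), and signal of the parent gene cannot be told apart from it here. The adhesion receptor Adgrl2 averaged 218 ± 93.5 in DBP-DBP and 89.0 ± 28.6 in DBP-oil pups and 243 ± 100.2 in oil-DBP and 86.2 ± 28 in oil-oil pups, with differences of 1.10 (limma adjusted p = 0.0249) and 1.25 (limma adjusted p = 0.00806). With the labelling control as a covariate the first adjusted p was 0.340.

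Some members passed the test in 1 of the comparisons. Emp1 measured 221, 178, 460.2 and 313 in DBP-DBP pups, against 142, 141, 136 and 77.1 in DBP-oil pups, a difference of 1.07 that did not pass (limma adjusted p = 0.164). In oil-DBP pups Emp1 measured 185, 566, 195 and 369, against 9.85, 65.4, 86.6 and 95.4 in oil-oil pups, a difference of 2.09 ± 0.40 (limma adjusted p = 0.00162). The difference between these responses was -1.02 ± 0.57 on the log2 scale and did not pass the interaction test (limma adjusted p = 0.954), and another probe set of Emp1 rose by 1.87 after fetal DBP and by 2.15 after fetal oil. Pcdh18, the probe set 1373578_at of Trim2 and complement C3 were higher after fetal oil alone by 1.01, 1.19 and 1.14, all without an adjusted p under 0.05 after fetal DBP. One of the 3 member probe sets of the zinc finger factor Trps1 was higher after fetal DBP alone by 0.73 ± 0.20 (limma adjusted p = 0.0402), and with the labelling control as a covariate its adjusted p was 0.188. Without the Trizol arrays of pups 104 and 115, Pcdh18 and C3 had limma adjusted p values of 0.108 and 0.0654 after fetal oil. C3 remained dim, at 63.3 ± 15.2 in oil-DBP and 19.6 ± 13.0 in oil-oil pups.

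The 250 bases before the RefSeq start of Emp1 and of Trim2 are printed because these are the members higher after DBP whose window holds the AP-1 sequence; capitals mark TGANTCA, which reads the same on both strands. It was present in 4 of the 69 member windows (5.80%) and in 6.363% of the 27457 windows. The other members that hold it, Amotl1 and Hsd17b3, did not pass the test after DBP. A match is a description of the letters, not a binding site. The bases are RefSeq's, build GRCr8, at chr4:169943980-169944229 (plus strand) for Emp1 and chr2:171862445-171862694 (minus strand) for Trim2.
Emp1: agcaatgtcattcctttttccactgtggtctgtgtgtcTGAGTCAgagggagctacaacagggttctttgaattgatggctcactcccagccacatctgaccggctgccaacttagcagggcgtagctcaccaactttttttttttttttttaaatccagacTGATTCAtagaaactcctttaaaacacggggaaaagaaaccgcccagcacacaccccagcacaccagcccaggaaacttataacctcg
Trim2: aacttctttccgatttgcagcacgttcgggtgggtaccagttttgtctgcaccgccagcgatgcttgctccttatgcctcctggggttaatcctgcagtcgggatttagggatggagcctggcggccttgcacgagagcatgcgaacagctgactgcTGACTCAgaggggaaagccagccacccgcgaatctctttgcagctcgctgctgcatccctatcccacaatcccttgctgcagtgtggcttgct

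Members lower after DBP were few. Smo, the hedgehog transducer, measured 33.4, 9.24, 56.9 and 37.6 in oil-DBP pups, against 79.9, 63.6, 73.5 and 76.5 in oil-oil pups, and differed by -0.99 (limma adjusted p = 0.0466). The matrix protease Adamts5 measured 36.0, 5.57, 39.0 and 9.999 in oil-DBP pups, against 57.7, 59.3, 62.7 and 117 in oil-oil pups, and differed by -1.36 (limma adjusted p = 0.0118) in 1394483_at. In DBP-DBP against DBP-oil pups Smo differed by -0.63 (limma adjusted p = 0.341) and 1394483_at of Adamts5 by -0.49 (limma adjusted p = 0.546). The other member probe set of Adamts5 differed by -0.10 after fetal oil (limma adjusted p = 0.868). The call of Smo after fetal oil was lost in 13 of 21 alternative settings, with limma adjusted p values up to 0.178. Another probe set of Smo, with means of 957 in GD20 oil testes and 82.5 in oil-oil pups, passed in neither comparison.

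**Figure D3:**
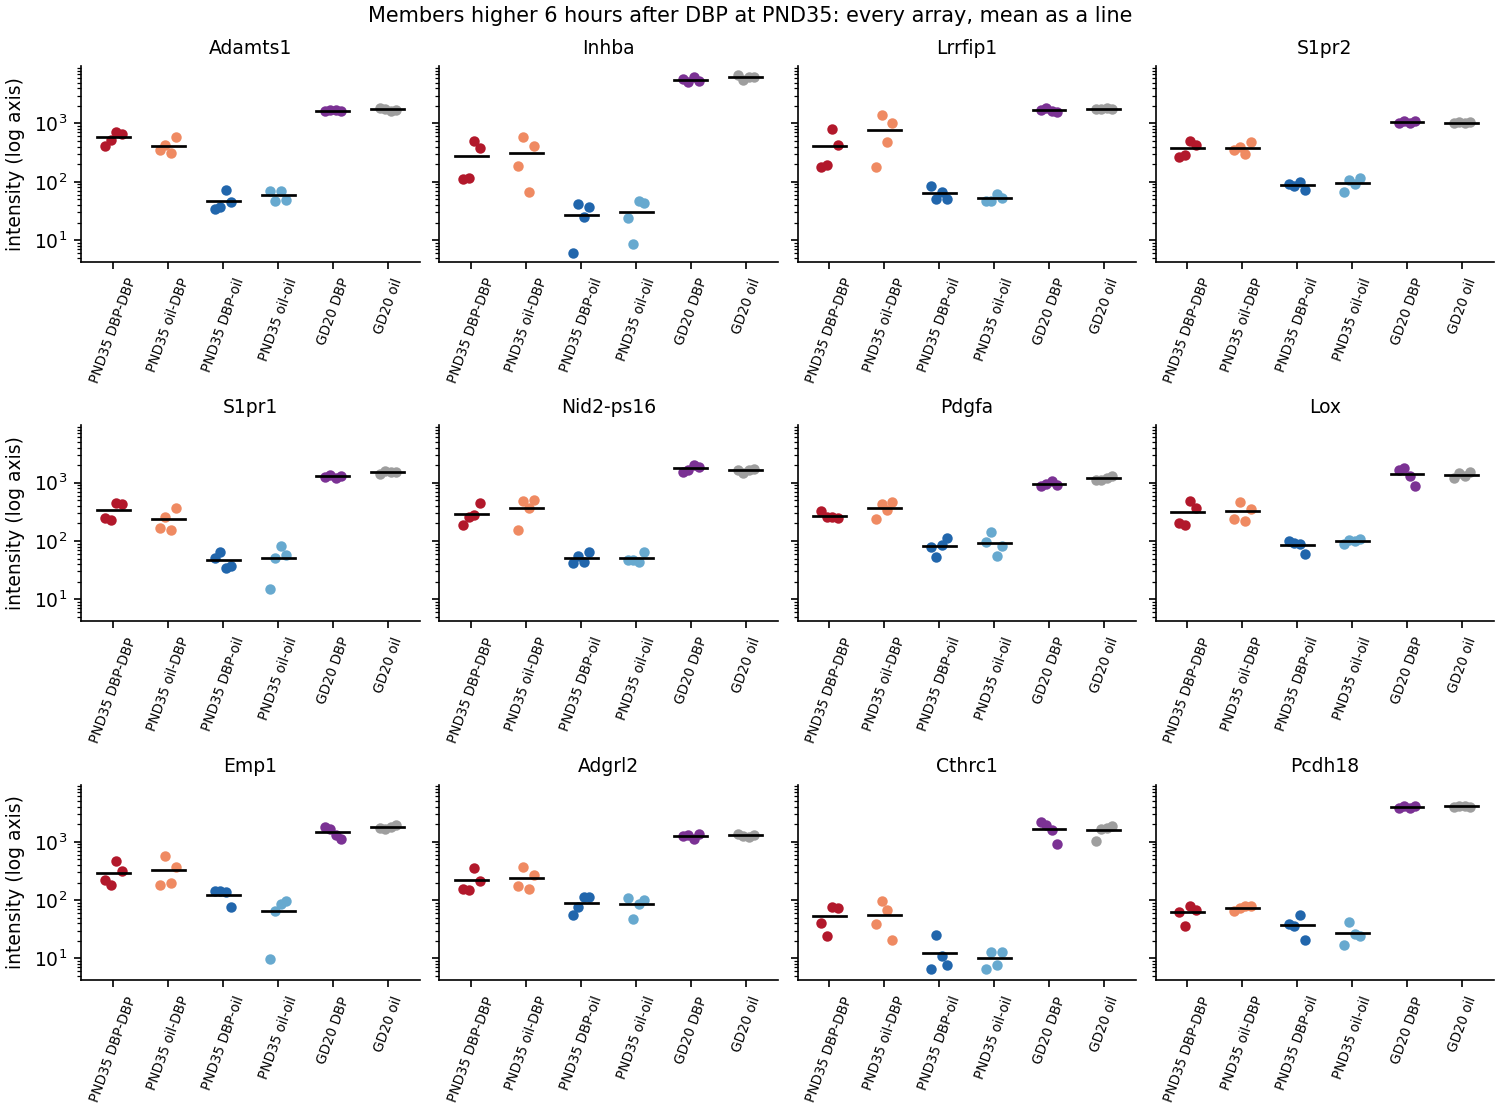
Intensity of 12 members in every array (points, log axis), with a line at each group's mean, for DBP-DBP, oil-DBP, DBP-oil, oil-oil, GD20 DBP and GD20 oil from left to right. Apart from overlaps in Cthrc1 and Pcdh18, the dosed pups lie above the pups given oil, and all lie below the GD20 testes, as for Adamts1, with means of 577, 418, 47.4, 58.6, 1659.8 and 1747.

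Most of the members stayed dim after DBP. Of the 133, 105 passed in no comparison among the DBP groups, GD20 included, and several of the brightest fetal genes were among them. The share of all probe sets that passed was 0.441% at GD20, 5.23% after fetal DBP and 8.92% after fetal oil. Cpa1 averaged 85.8 ± 30.2 in DBP-DBP, 95.1 ± 24.9 in oil-DBP, 90.9 ± 30.6 in DBP-oil and 90.3 ± 28.4 in oil-oil pups. Gpc3 averaged 13.8 ± 10.2 in DBP-DBP, 27.0 ± 39.9 in oil-DBP, 25.8 ± 33.0 in DBP-oil and 12.1 ± 6.22 in oil-oil pups. Lhx9, Igf2bp2, Nnat, Agtr2, Hsd17b3, Krt8, Krt18, Boc and Gli1 passed in none of the comparisons between dosed groups by their member probe sets. Another probe set of Agtr2 was lower in oil-DBP than in oil-oil pups by a log2 difference of -1.38 (limma adjusted p = 0.00495). Other probe sets of Apeg3 and Fgfr2 were lower in that comparison too. Other probe sets of Pdlim7, Tpm1 and the receptor Egfr were higher in both comparisons, with Egfr up by 1.84 after fetal DBP and 1.68 after fetal oil. For Sox4, another probe set was higher after fetal DBP and a different one after fetal oil. The median log2 difference of the 133 members was 0.05 in DBP-DBP against DBP-oil and 0.06 in oil-DBP against oil-oil pups, against -0.06 and -0.08 for all probe sets.

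Some genes of the same functions that are no members passed the test as well. After fetal DBP 3.64% of all probe sets were higher and 1.58% lower, and after fetal oil 4.77% were higher and 4.15% lower. Beside these shares the counts of signalling and matrix genes are small and are given as a description. Of 41 such developmental signalling genes, 4 were higher and 2 lower in DBP-DBP against DBP-oil pups and 3 higher and 3 lower in oil-DBP against oil-oil pups, with Wnt4 up by 2.42 and 2.93. Of 62 matrix genes, 4 were higher and 0 lower after fetal DBP and 6 higher and 1 lower after fetal oil, with Ccn1 up by 3.45 and 3.26. Of 51 stromal genes, 14 were higher and 1 lower after fetal DBP and 10 higher and 1 lower after fetal oil. Of the 55 immediate early genes, 43 were higher and 1 lower after fetal DBP, where Fos rose by 4.75, and 44 were higher and 1 lower after fetal oil.

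Markers of other cells moved with the return. The summed intensity of 5 macrophage and leukocyte markers was 1465 to 3724 in DBP-DBP and 1631 to 3172 in oil-DBP pups, against 984 to 1331 in DBP-oil and 1173 to 1481 in oil-oil pups. That of 6 markers of mesonephric, epididymal and rete epithelium was 2373 to 3019 in DBP-DBP and 2353 to 3608 in oil-DBP pups, against 1263 to 1640 in DBP-oil and 1465 to 1866 in oil-oil pups. Of that list, Krt19 averaged 1360.2 ± 194 in DBP-DBP and 1652 ± 457 in oil-DBP pups, against 135 ± 30.5 in DBP-oil and 151 ± 13.5 in oil-oil pups. The other markers of that list did not move like Krt19: Epcam averaged 1176 in DBP-DBP and 1343 in oil-DBP pups, against 1199 in DBP-oil and 1325 in oil-oil pups, and Pax8 averaged 29.7 in DBP-DBP and 34.1 in oil-DBP pups, against 104 in DBP-oil and 37.4 in oil-oil pups. The sum of 7 Leydig markers was lower, at 10476 to 12940 in DBP-DBP and 6268 to 13528 in oil-DBP pups, against 12514 to 17439 in DBP-oil and 15161 to 20474 in oil-oil pups, and it overlapped after fetal DBP. The sum of 5 peritubular markers was 3590.0 to 3812 in DBP-DBP and 3483 to 3902 in oil-DBP pups, against 2286 to 3365 in DBP-oil and 2584 to 2888 in oil-oil pups, while 5 stromal markers lay between 3009 and 4132 over all PND35 arrays. No marker was listed at 0, and the part of these shifts in the return was not tested.

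The 21 returning members were chosen for being higher in dosed pups, so their summed intensity is given as a description. It was 3557, 3617, 6602 and 5334 in DBP-DBP and 3457, 7808, 3910 and 6881 in oil-DBP pups, against 1209, 1189, 1336 and 1211 in DBP-oil and 1091, 1244, 1202 and 1334 in oil-oil pups. In pup 115, extracted with Trizol like the oil-oil pup 104, the sum was 3910. The GD20 sums were 35787 to 38551 in GD20 DBP and 38702 to 39783 in GD20 oil testes.

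No member differed between the responses after fetal DBP and after fetal oil, or between pups by fetal exposure alone, at the threshold used. Over the 133 members the log2 differences of the 2 comparisons, which share no arrays, had a Pearson r of 0.83, against 0.61 over all probe sets; the members are not independent of each other. In the interaction test 0 members and 0 of all 31042 probe sets passed, 1466 of all probe sets had an unadjusted p under 0.05, and 3 members had an unadjusted p under 0.05. The smallest p values belonged to Sox4, with a difference of responses of -0.78 ± 0.30, and Adamts1, with 0.76 ± 0.31, both with a limma adjusted p of 0.954. A missed threshold does not show that the responses were the same, since the SE of these differences was as given.

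**Figure D4:**
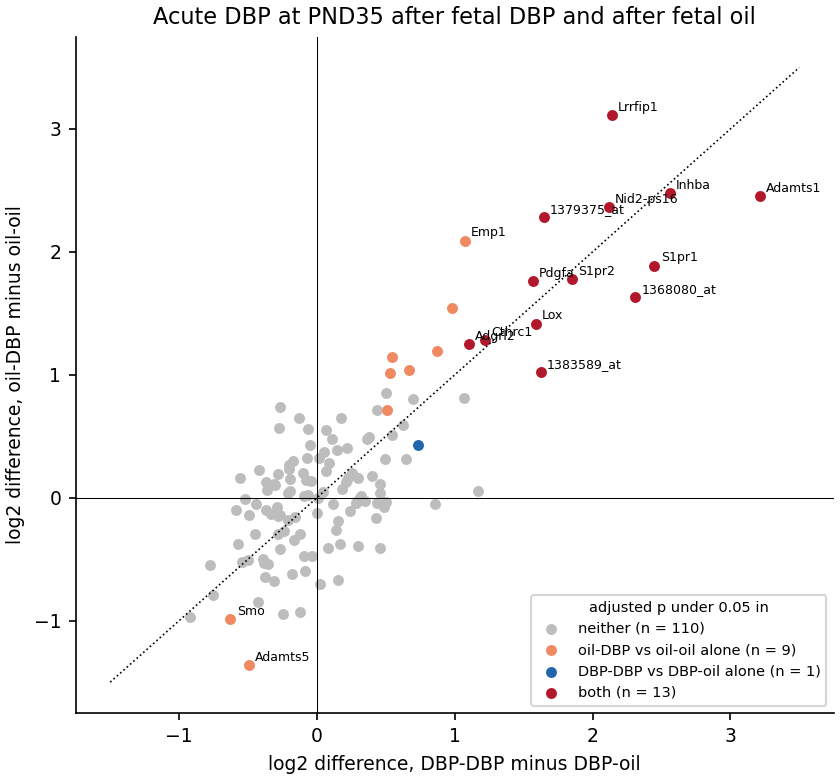
Log2 difference of each of the 133 members after DBP at PND35 in pups with fetal DBP (x, DBP-DBP minus DBP-oil) and in pups with fetal oil (y, oil-DBP minus oil-oil), on the log2(intensity + 16) scale. Colours mark the 13 members changed in both, the 1 changed after fetal DBP alone, the 9 after fetal oil alone and the 110 in neither; Adamts1 lies at 3.22 and 2.45.

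In DBP-oil against oil-oil pups 0 of 133 members passed, where 0.00322% of all probe sets did, and 5 members and 2299 of all probe sets had an unadjusted p under 0.05. Igsf10, an immunoglobulin superfamily protein, averaged 31.3 ± 30.9 in DBP-oil and 67.8 ± 21.7 in oil-oil pups. Sox4, a transcription factor of progenitor cells, differed by 0.72, with 144 ± 29.6 in DBP-oil and 80.6 ± 25.4 in oil-oil pups. In DBP-DBP against oil-DBP pups 0 members and 0 of all probe sets passed, and 4 members and 2791 of all probe sets had an unadjusted p under 0.05. These included Adamts5, with a difference of 0.98 in 1394483_at, and Krt8, with -0.65, at 37.9 ± 7.48 in DBP-DBP and 69.6 ± 8.26 in oil-DBP pups. The labelling control was high in every DBP-DBP and low in every oil-DBP array. Its class and fetal exposure therefore cannot be told apart in that comparison. In DBP-oil against oil-oil pups they overlap in part, since only DBP-oil pups 132 and 134 had a high level.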

How the data were processed

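Testis RNA was measured on 1 Rat230_2 array for each of 24 samples, and the groups came from the sample labels. The linear probe-set intensity values were deposited by the authors, all positive and without detection calls; each array is scaled to the same 2% trimmed mean, and GCOS 1.0 is named per the submitters' processing notes. How probes were summarized is not stated in those sources. The number of arrays limits the precision. Replicates are separate dams or pups per the labels, except for the pooled array of dam 2, so p-values measure the spread between these animals. The pup labels name no dam, so pups of a group may share a litter. Fetal doses were given to dams, so p-values for fetal exposure at PND35 may not measure the spread between litters.

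The members, the gene lists, the tests and the naming rule were chosen with earlier results of these data known, and the pancreatic list, the printed promoters and single probe sets were chosen after their values were seen. A pseudocount of 16 was added before log2. The 8 GD20 arrays were fitted as deposited, as were all 24 arrays for age, and the 16 PND35 arrays were centred on their medians, because their median log2 values spanned 0.155 and the limit was 0.1 (GD20: 0.079). Models were fitted in R 4.3.3 by limma 3.58.1, whose lmFit and trended eBayes steps were used; p-values were two-sided and adjusted over 31042 probe sets by Benjamini-Hochberg, and the threshold was 0.05; the fit was checked on simulated data. The text names members past the threshold, the brightest, the most different and the listed members, the probe sets beside the limits and those with the smallest p. The array annotation gave 1 symbol to 20826 probe sets, several to 436 and none to 9780. Promoter sequences were found for 69 of 92 member genes. Alternatives covered scaling, pseudocount, filter, variance prior, array weights, RNA integrity, extraction, spike-in class, pup blocks and single arrays.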

Additional observations from a re-analysis of the deposited data

Results flagged for a closer look

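In all, 90 groups of 4 arrays were examined, for members that passed a test and for the median intensity of all members. Of these, 2 held an array that stood apart from the other 3 by Dixon's criterion, and chance alone gives about 1 in 20. Pdgfa measured 329.8 in pup 124 of the DBP-DBP group, above the 248 to 260.0 of the other pups of that group. Adamts5 (1394483_at) measured 117 in pup 120 of the oil-oil group, above the 57.7 to 62.7 of the other pups of that group.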

How the results depend on the processing

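The 6 members lower at GD20 were the least stable count: 3 under median centring, 3 under centring on the 75th percentile, 0 without the intensity trend and 2 without the pooled array, and between 1 and 5 when each array was left out in turn, with 2 without oil dam 2 or oil dam 3, 1 without oil dam 4 or oil dam 5 and 3 without DBP dam 21. The 22 members called in oil-DBP against oil-oil pups became 14 with the RNA integrity number as a covariate and lay between 15 and 22 with each array left out. The 14 in DBP-DBP against DBP-oil pups lay between 11 and 15. With spike-in class as a covariate, the adjusted p of Inhba was 0.0576, of Adgrl2 0.340, of Cthrc1 0.0877 and of Trps1 0.188 in that comparison. The fetal comparisons at PND35 and the interaction gave 0 members, and the age comparison 133, with each array left out. The number of members depended on the limits: 504 with a GD20 oil mean of at least 500, 29 with at least 2000, 45 with an oil-oil mean of at most 50 and 332 with at most 200. It depended on scaling too: with the limits kept, it was 57 when arrays were scaled to the same median. With each array left out it was 129 to 138. Among the single members, 51 of the GD20 values under alternatives fell below the threshold and 69 kept their side; the numbers were 74 and 387 for oil-DBP against oil-oil and 28 and 294 for DBP-DBP against DBP-oil, and no direction reversed. No dam or pup number recurs in 2 groups, so the labels give no pairs. With adjacent pup numbers as a block, which the labels do not call littermates, 24 members were called in oil-DBP against oil-oil pups and 14 in DBP-DBP against DBP-oil pups, with a consensus correlation of 0.054. The cause of these changes was not tested. Dim values near the array median limit the precision of every PND35 result.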
